A study of Mus musculus with 12 samples.

Results

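The genes described here were 30 genes of cholesterol synthesis and of its control by SREBP2, taken by gene symbol. The list was chosen with earlier results of these data known. Shares and medians of the 30 beside all tested genes are therefore descriptions, and no set test was made. All 30 were found among the 28036 genes of the deposited table, and all 30 passed the filter on low counts. They comprised 21 enzymes that build cholesterol from acetyl-CoA, SREBP2 (gene Srebf2) with 3 of its regulators, and 5 genes of sterol uptake, transport and esterification. RNA had been sequenced from the livers of 12 C57BL/6J mice in 4 groups of 3, and the labels put every sample at 12 weeks. The control group had no disease model and received the vehicle by mouth, 0.5% CMC-Na, for 4 weeks. The MASH group had a high-fat diet model of metabolic dysfunction-associated steatohepatitis, a fatty and inflamed liver, set up over 8 weeks, and then the same vehicle. The EE group had the same model and then Eleutheroside E, a plant lignan glycoside, at 100 mg/kg by mouth for 4 weeks. The resmetirom group had the same model and then 3 mg/kg of resmetirom, which activates the beta form of the thyroid hormone receptor, by mouth for 4 weeks. No dosed group without the model was among these samples, so each compound was read only in mice that carried the model. The labels number the mice within a group but do not state how they were housed or paired, and p-values measure the spread between these samples.

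Cells make cholesterol by a long chain of enzymes that runs through mevalonate, isoprenoid phosphates, squalene and lanosterol. SREBP2 is the transcription factor that sets the pace of this chain. Its precursor sits in the endoplasmic reticulum bound to the escort protein SCAP. When sterols are scarce, SCAP carries SREBP2 to the Golgi, where it is cut, and the released part enters the nucleus and switches on the enzyme genes. When sterols are plentiful, the INSIG proteins hold SCAP back. Srebf2 and Insig1 are themselves known targets of the released factor. The liver is a main site of this synthesis, and it passes cholesterol on to bile and lipoproteins.

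The upstream sequences of 5 enzyme genes are shown first, because promoters of this pathway are known to carry sterol regulatory elements beside sites for the factors NF-Y and SP1. They are the 250 bases before the annotated transcription start, from RefSeq on GRCm38.p6, written 5′ to 3′ on the strand of the gene. Capitals mark the NF-Y box, CCAAT or its reverse complement ATTGG, and in Hmgcs1 also the sterol regulatory element. Hmgcs1 encodes the cytosolic synthase for HMG-CoA, and its stretch is chr13:119690101-119690350 on the plus strand.
Hmgcs1: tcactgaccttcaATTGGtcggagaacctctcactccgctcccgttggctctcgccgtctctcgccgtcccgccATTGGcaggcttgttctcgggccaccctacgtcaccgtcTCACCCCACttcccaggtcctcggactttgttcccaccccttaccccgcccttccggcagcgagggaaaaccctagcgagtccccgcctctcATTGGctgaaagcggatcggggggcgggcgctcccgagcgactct
Mvk encodes mevalonate kinase, which of the 30 genes had the lowest p-value for resmetirom against control, and its stretch is chr5:114444019-114444268 on the plus strand.
Mvk: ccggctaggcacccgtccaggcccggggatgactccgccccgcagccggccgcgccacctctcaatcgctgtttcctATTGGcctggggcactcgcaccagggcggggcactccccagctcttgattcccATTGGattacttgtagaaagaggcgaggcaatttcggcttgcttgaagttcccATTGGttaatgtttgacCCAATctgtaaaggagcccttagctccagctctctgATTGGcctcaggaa
Mvd encodes mevalonate diphosphate decarboxylase, which of the 30 genes had the highest fold change in that comparison, and its stretch is chr8:122443423-122443672 on the minus strand.
Mvd: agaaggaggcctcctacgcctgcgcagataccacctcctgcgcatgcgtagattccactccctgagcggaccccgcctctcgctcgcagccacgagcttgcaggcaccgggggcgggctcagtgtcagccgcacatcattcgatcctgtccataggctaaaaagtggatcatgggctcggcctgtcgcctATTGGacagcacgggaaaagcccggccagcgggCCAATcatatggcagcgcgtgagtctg
Lss encodes lanosterol synthase, which closes the sterol rings, and its stretch is chr10:76531355-76531604 on the plus strand.
Lss: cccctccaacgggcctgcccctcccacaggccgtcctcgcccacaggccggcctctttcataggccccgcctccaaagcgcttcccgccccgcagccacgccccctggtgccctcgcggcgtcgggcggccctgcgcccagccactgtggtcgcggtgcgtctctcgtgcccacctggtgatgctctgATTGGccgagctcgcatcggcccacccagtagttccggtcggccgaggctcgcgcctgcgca
Nsdhl encodes a sterol dehydrogenase that removes methyl groups after lanosterol, and its stretch is chrX:72918271-72918520 on the plus strand.
Nsdhl: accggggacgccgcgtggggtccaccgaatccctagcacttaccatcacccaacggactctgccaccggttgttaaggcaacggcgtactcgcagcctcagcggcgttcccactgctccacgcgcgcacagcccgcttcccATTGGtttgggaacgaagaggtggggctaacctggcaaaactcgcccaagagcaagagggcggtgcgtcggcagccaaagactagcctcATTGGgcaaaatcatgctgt

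Windows of 300 bases, 250 before and 50 after the start, were found for 24 of the 30 genes, and both strands were searched. The NF-Y box CCAAT occurred in 21 of these 24 genes (87.5%), against 41.1% of the 27025 genes with a window and 43.0% of the 10191 genes with a window that were tested for expression. Aacs, Acat2 and Scap had none. The SP1 box GGGCGG also occurred in 21 of 24 (87.5%), against 38.2% of all genes and 66.2% of the tested genes. The sterol regulatory element TCACNCCAC was found in Hmgcs1 alone (4.17% of 24 genes), against 1.44% of all genes. Its shorter core CACNCCAC, which lies inside that motif, was found in Acat2, Hmgcs1 and Insig1 (12.5%), against 7.12% of all genes. The single site AGGTCA, the building block of thyroid hormone receptor sites, was found in Hmgcs1, Dhcr7 and Insig1 (12.5%), against 18.1% of all genes and 15.6% of the tested genes. These matches describe letters in a window, not binding.

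**Figure D1:**
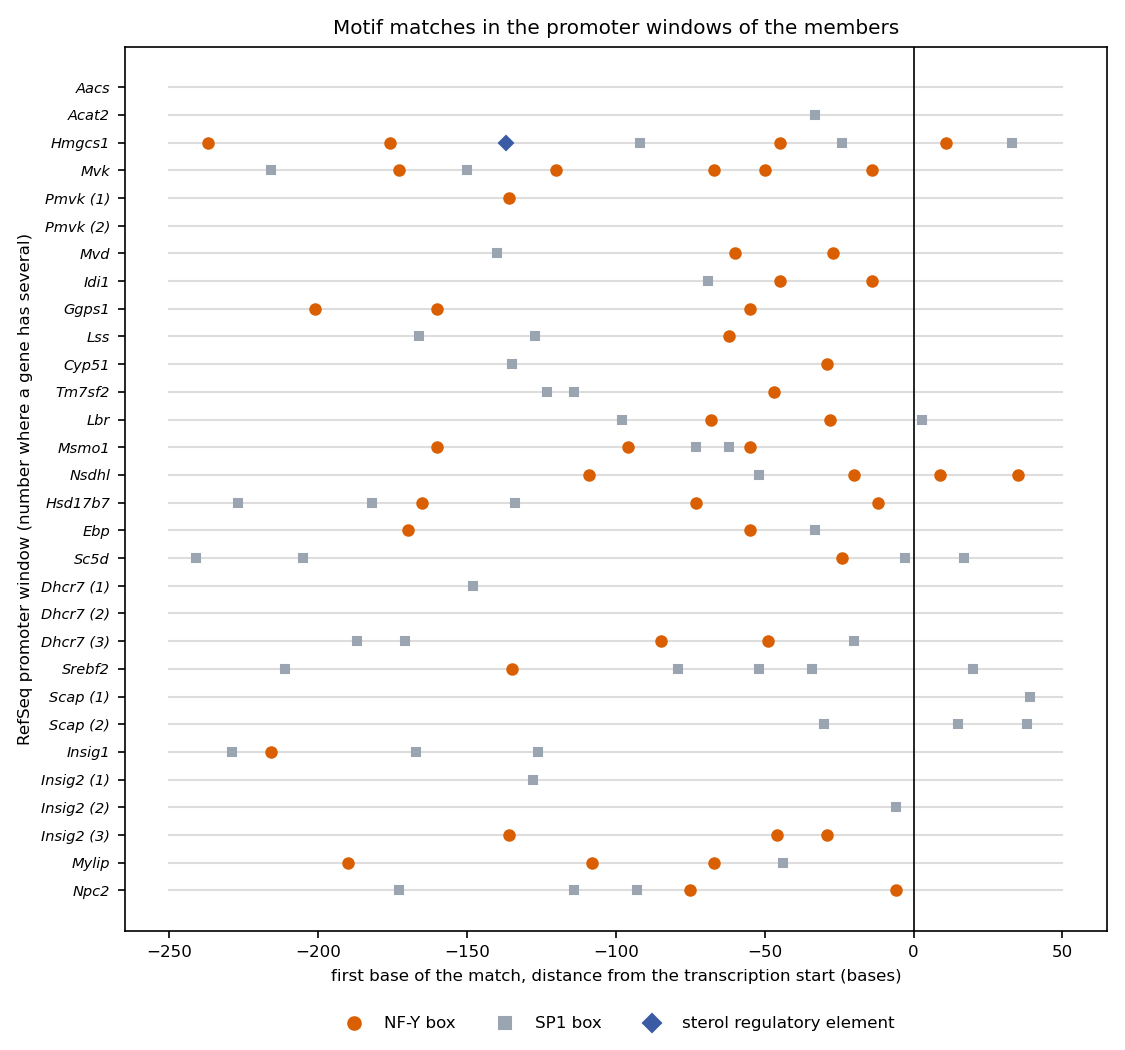
Positions of NF-Y boxes, SP1 boxes and the sterol regulatory element in the RefSeq windows of 24 genes; the x axis is the distance of the first base of a match from the transcription start in bases, and each line is 1 window, numbered where a gene has several. The NF-Y boxes of Mvk lie at 5 positions from -173 to -14, those of Mvd at -60 and -27, and the element of Hmgcs1 at -137.

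The libraries held 17297865 to 21793326 counts each, and levels are given as CPM, the count scaled to a common library size. Control liver 1 stood apart, with 35.4% of its counts on mitochondrial genes against 2.40% to 4.38% in the other 11 libraries. Resmetirom liver 2 had 35.7% of its counts on major urinary protein (Mup) genes, against 3.33% to 16.0% elsewhere. All 10 hepatocyte markers listed were expressed, at a summed 103300 to 154700 CPM in control, 94530 to 107400 in MASH, 124000 to 131900 in EE and 70770 to 106200 in resmetirom livers. The 12 Kupffer cell and macrophage markers summed to 100.4 to 453.2 CPM in control livers, lowest in control liver 1, and to 444 to 563.7, 483.8 to 607.8 and 417.7 to 1121 CPM in the MASH, EE and resmetirom livers. Summed levels of the 10 stellate cell and fibroblast markers were 187.8 to 269.1, 249.7 to 283.6, 143.8 to 202.1 and 164.8 to 658.2 CPM in the same order, and the highest Kupffer and stellate sums were both in resmetirom liver 1. In bulk tissue, fewer cells of a type and less RNA per cell cannot be told apart. The part of these differences in the results below was not tested.

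Resmetirom livers carried more RNA than control livers for 9 enzymes of the sterol chain and for Srebf2. Of the 30 genes, 10 rose and none fell (edgeR, adjusted p below 0.05), against 3.16% of all 13988 tested genes called in either direction and 1.41% called higher. At an unadjusted p below 0.05 there were 16, against 22.9% of all tested genes. The listed enzymes number 21. The median log2 difference of the 30 genes was 0.94, and that of the 21 enzymes 1.22, against 0.02 over all tested genes. Groups did not overlap for 14 genes that were higher and 1 that was lower, against 9.93% and 10.9% of all tested genes. Of 8 markers of cycling cells listed, 7 were tested and all 7 had higher levels in resmetirom than in control livers (1 called, 7 with an unadjusted p below 0.05, 6 with no overlap, median log2 difference 2.51). Their summed level was 4.02 to 6.43 CPM in control livers, 8.61 to 13.1 in MASH, 4.16 to 6.81 in EE, and 62.5, 10.6 and 8.05 in resmetirom livers 1, 2 and 3. The part of these markers in the sterol result was not tested. The control mice had neither the model nor the compound, so the parts of the model and of the compound in this comparison cannot be told apart.

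**Figure D2:**
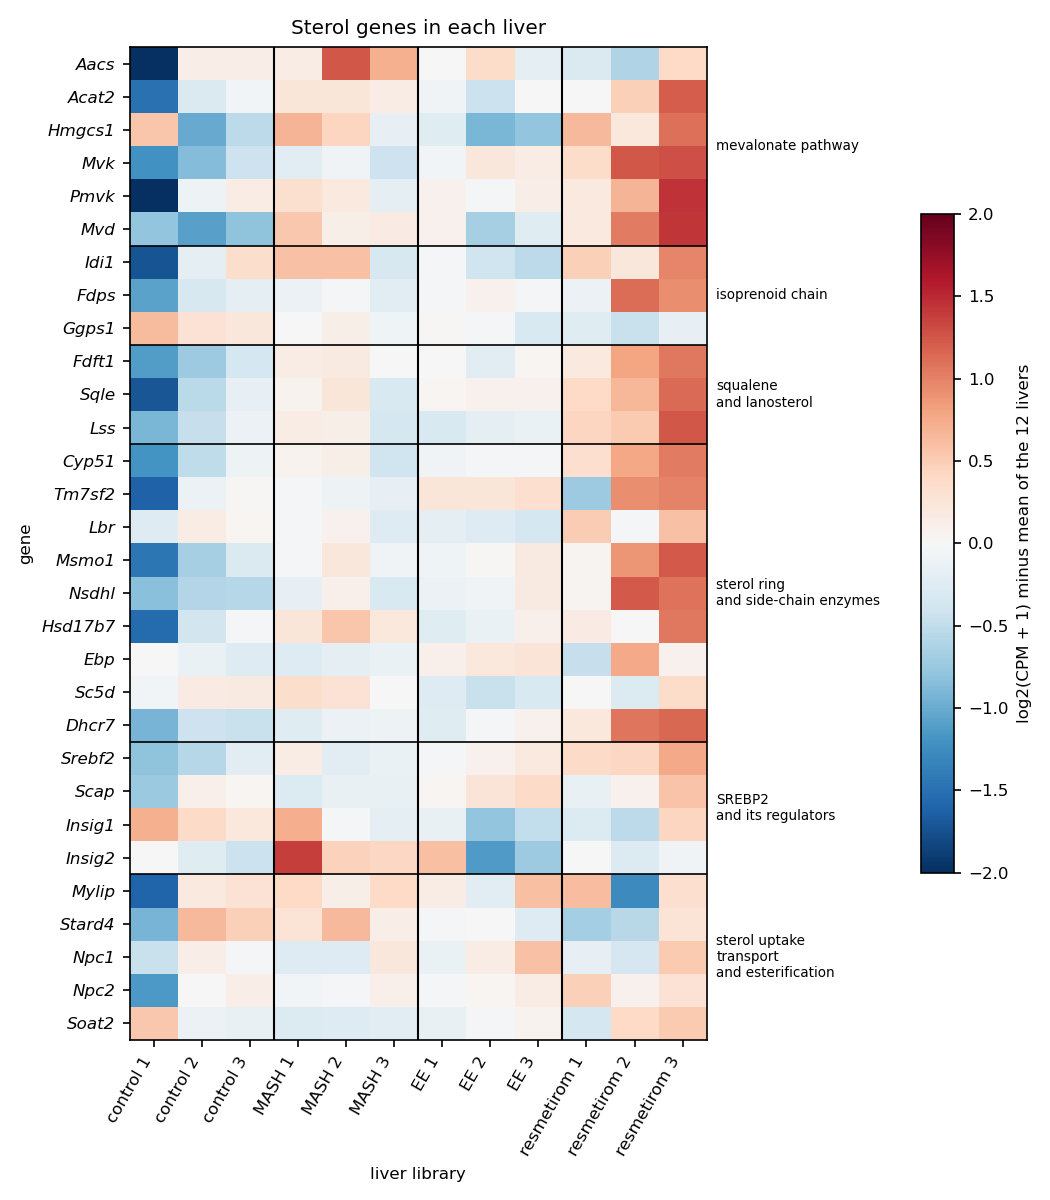
Log2(CPM + 1) of each of the 30 genes in each liver, minus the gene's mean over the 12 livers (colour scale); rows are genes grouped by role and columns are livers. Control liver 1 was the lowest of 12 for 15 of the 21 enzymes, and resmetirom liver 3 was the highest for 16 of 21.

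At the start of the chain, Acat2, Hmgcs1 and Aacs supply and join acetyl units, and Mvk, Pmvk and Mvd turn mevalonate into the isoprenoid unit. Mvk measured 12.4, 15.9 and 22.2 CPM in the control livers, 25.3, 28.3 and 22.2 in the MASH livers, 28.8, 35.1 and 33.4 in the EE livers and 39.1, 71.9 and 74.4 in the resmetirom livers. Every resmetirom liver lay above every other liver, and every control liver lay below the MASH and EE livers, by the least for control liver 3. From control to resmetirom Mvk rose 3.66-fold (log2 1.87 ± 0.28, SE, 95% interval 1.27 to 2.48, edgeR adjusted p = 0.0114). Mvd measured 16, 12.9 and 15.8 CPM in the control livers, 41.6, 30.9 and 31.8 in the MASH livers, 30.1, 17.5 and 23.8 in the EE livers and 32.7, 59.5 and 78.4 in the resmetirom livers. Its control levels lay close together and below all other livers. It rose 3.82-fold (log2 1.93 ± 0.31, adjusted p = 0.0123).

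Hmgcs1, by contrast, did not pass. It measured 517, 174 and 244 CPM in the control livers, 564, 472 and 314 in the MASH livers, 298, 185 and 203 in the EE livers and 550.3, 406 and 752 in the resmetirom livers. Control liver 1 was far above the other control livers and within the range of the resmetirom livers, so the groups overlapped. The log2 difference of resmetirom from control was 0.87 ± 0.40 (adjusted p = 0.221). Pmvk, the phosphomevalonate kinase, measured 4.82, 39 and 46.8 CPM in control and 48.3, 67.8 and 116 in resmetirom livers. Its value in control liver 1 was far below all others, and its log2 difference was 1.34 ± 0.58 (adjusted p = 0.191). Acat2, a cytosolic acetyl-CoA acetyltransferase, had means of 75.1 ± 33.9 and 167 ± 72.1 CPM (SD, n = 3) and did not pass (log2 1.15 ± 0.37, adjusted p = 0.0987). Its value is uncertain, because the near-identical gene Acat3 (195 to 465 CPM) could share its reads. Aacs, which activates acetoacetate, differed by 0.20 ± 0.49 (adjusted p = 0.845).

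None of the 3 isoprenoid genes passed. Idi1 is the isomerase of the isoprenoid unit, Fdps makes farnesyl diphosphate, and Ggps1 takes farnesyl diphosphate away from sterols to geranylgeranyl diphosphate. Fdps measured 192, 323 and 354 CPM in the control livers, 371, 397 and 348 in the MASH livers, 393, 426 and 393 in the EE livers and 374, 879 and 769 in the resmetirom livers. Resmetirom livers 2 and 3 were far above all others, while resmetirom liver 1 lay at the level of the MASH livers. Its log2 difference from control was 1.22 ± 0.32 (adjusted p = 0.0586). Ggps1 measured 7.54, 5.75 and 5.48 CPM in control and 3.70, 3.07 and 3.95 in resmetirom livers. The groups did not overlap, and it was the only one of the 30 genes whose resmetirom livers all lay below the controls, but it did not pass (log2 -0.80 ± 0.23, adjusted p = 0.0758). Idi1 differed by 0.90 ± 0.44 (adjusted p = 0.244).

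All 3 enzymes from squalene to lanosterol rose. Fdft1, squalene synthase, commits the chain to sterols, and it measured 70.0, 92.8 and 119.5 CPM in the control livers, 171, 174 and 154 in the MASH livers, 152, 133 and 157 in the EE livers and 176, 266 and 319.9 in the resmetirom livers. The resmetirom livers were the highest and the control livers the lowest, with no overlap between these groups. It rose 2.70-fold (log2 1.43 ± 0.26, adjusted p = 0.0181). Sqle, squalene epoxidase, is a rate-limiting step, and it measured 25.7, 59.6 and 77.3 CPM in the control livers, 91, 102 and 70.2 in the MASH livers, 88.8, 92.2 and 91.9 in the EE livers and 114, 138 and 192 in the resmetirom livers. Every resmetirom liver lay above every other liver. Sqle rose 2.73-fold (log2 1.45 ± 0.34, adjusted p = 0.0446), the weakest call of the 10. Lss rose from 39.2, 54.3 and 69 CPM in control to 102, 108 and 179 in resmetirom livers, 2.39-fold (log2 1.26 ± 0.27, adjusted p = 0.0332). Lss measured 83, 80.9 and 58.6 CPM in the MASH livers and 60.5, 65.5 and 68.3 in the EE livers, and no EE liver lay above every control liver. Exons of Fdft1 overlap those of Ctsb, a cathepsin gene on the opposite strand with a mean of 546 CPM. The counting strand is not given in the sources used here. It is therefore not known which gene received the reads of the shared stretch. Ctsb itself differed by 0.02 ± 0.25 between resmetirom and control (adjusted p = 0.976).

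Of the 9 enzymes that trim lanosterol to cholesterol, 4 rose. Cyp51 removes the first methyl group, and it measured 87.2, 142 and 188 CPM in the control livers, 211, 218 and 152 in the MASH livers, 192, 195 and 198 in the EE livers and 254, 347 and 416 in the resmetirom livers. The resmetirom livers lay above all others, and control liver 3 reached the MASH range. Cyp51 rose 2.43-fold (log2 1.28 ± 0.29, adjusted p = 0.039). Exons of Cyp51 overlap those of Akap9 on the opposite strand, which had a mean of only 12.1 CPM. Msmo1, a methyl sterol oxidase, went from 71.4, 124 and 160 CPM in control to 204, 363 and 460.1 in resmetirom livers (log2 1.53 ± 0.33, adjusted p = 0.0329). Its MASH livers were at 192, 231 and 188 CPM and its EE livers at 186, 201 and 223. Nsdhl went from 59.9, 71.3 and 72 to 113, 255 and 229 CPM (log2 1.55 ± 0.28, adjusted p = 0.0181). Resmetirom livers 2 and 3 lay far above resmetirom liver 1 for Nsdhl, which measured 96.5, 116.5 and 87.1 CPM in the MASH livers and 99.4, 103.3 and 121.9 in the EE livers. Dhcr7, a reductase at the end of the chain, measured 63.9, 92 and 90.5 CPM in the control livers, 104, 114 and 115 in the MASH livers, 104, 121 and 131 in the EE livers and 143, 259 and 274 in the resmetirom livers. It rose 2.74-fold (log2 1.46 ± 0.26, adjusted p = 0.0181), with resmetirom liver 1 the lowest of its group and still above every other liver.

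The other 5 trimming enzymes did not pass. Hsd17b7, a sterol ketoreductase, differed by 1.02 ± 0.36 (adjusted p = 0.127), and Tm7sf2, a sterol reductase, by 0.99 ± 0.45 (adjusted p = 0.209). Tm7sf2 shares exon sequence on the same strand with Vps51 (mean 18.2 CPM). Lbr, which carries the same reductase activity in the nuclear envelope, differed by 0.43 ± 0.22 (adjusted p = 0.258). Ebp, the sterol isomerase, measured 225, 206 and 189 CPM in control and 164, 381 and 239.9 in resmetirom livers, and differed by 0.34 ± 0.26 (adjusted p = 0.479). Sc5d, a sterol desaturase, was at 403, 470 and 478 and 424, 349 and 540.1 CPM, with a difference of -0.04 ± 0.22 and a 95% interval of -0.51 to 0.43 (adjusted p = 0.932).

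Among the regulators, Srebf2 rose and the others did not pass. Srebf2 measured 35.1, 41.2 and 52.5 CPM in the control livers, 68.9, 53.3 and 56.4 in the MASH livers, 59.9, 65.8 and 71.3 in the EE livers and 81.1, 82.6 and 105 in the resmetirom livers. The resmetirom livers lay above all others, and the control livers below all others. The rise from control was 2.08-fold (log2 1.06 ± 0.21, 95% interval 0.61 to 1.51, adjusted p = 0.0237). Scap measured 73.8, 133 and 128 CPM in the control livers, 103, 113 and 112 in the MASH livers, 128, 149 and 163 in the EE livers and 112, 132 and 185 in the resmetirom livers. Its control and resmetirom livers overlapped (log2 0.36 ± 0.26, adjusted p = 0.437).

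Neither INSIG gene was called. Insig1 measured 344, 276 and 243 CPM in the control livers, 349, 205 and 183 in the MASH livers, 190.2, 121 and 149.9 in the EE livers and 174, 147 and 285 in the resmetirom livers. Control liver 1 and MASH liver 1 were the highest, and the resmetirom livers overlapped the controls, at a log2 difference of -0.51 ± 0.32 (adjusted p = 0.37). Insig2, whose count sums transcripts from several start sites, measured 146, 123 and 108 CPM in the control livers, 379, 201 and 194 in the MASH livers, 219.9, 65.5 and 87.2 in the EE livers and 144, 120 and 139 in the resmetirom livers. The MASH livers lay above every control and every resmetirom liver, and EE liver 1 lay among the MASH livers. Resmetirom and control differed by 0.10 ± 0.40 (adjusted p = 0.912).

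**Figure D3:**
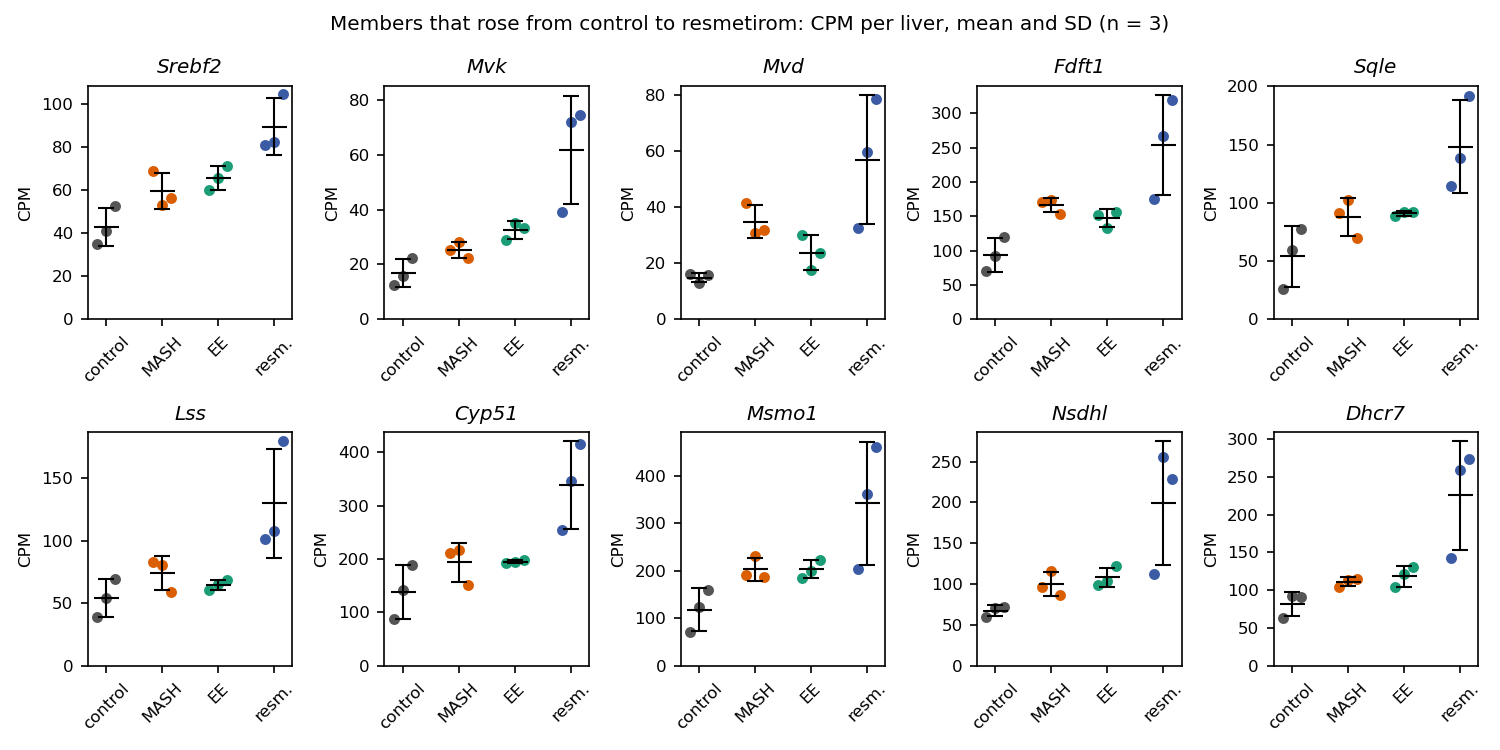
CPM in each liver (points), with the mean (long bar) and SD (short bars, n = 3) of each group, for the 10 genes that rose from control to resmetirom; each y axis starts at 0. In all 10 panels the lowest resmetirom liver lies above the highest control liver, by a ratio of 1.28 for Msmo1 up to 2.05 for Mvd.

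Stability of the 10 rises differed by gene. Mvk, Mvd and Dhcr7 passed in all 12 fits that each left out 1 library, Fdft1 in 11, Nsdhl and Srebf2 in 10, Lss in 4, Cyp51 and Msmo1 in 3 and Sqle in 2. Of the 30 genes, Dhcr7, Mvd and Mvk passed without control liver 2, and 5 passed without resmetirom liver 3. Without MASH liver 1, MASH liver 2 or any 1 of the EE livers, 6 passed, namely Dhcr7, Fdft1, Mvd, Mvk, Nsdhl and Srebf2. With control liver 1 left out, 11 of the 30 genes passed, and with control liver 1 and resmetirom liver 2 both left out all 10 passed again (adjusted p 0.0158 to 0.0445) among 11, against 7.46% of all genes tested in that fit. DESeq2 called 13 of the 30 (11.2% of all genes), the 10 with Acat2 and Fdps higher and Ggps1 lower. In a fit of the control and resmetirom groups alone none of the 30 passed, against 0.0378% of all genes tested there, and the 10 then had an adjusted p of 0.194 to 0.332. With no scaling factors none passed, against 0.265% of all tested genes, and the 10 had an adjusted p of 0.0555 to 0.307. The 10 log2 differences were positive in each of these fits.

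Against the MASH livers, which carried the same diet model, the resmetirom livers differed without a call. None of the 30 genes passed in edgeR (0.665% of all tested genes were), 13 had an unadjusted p below 0.05 against 15.0% of all tested genes, DESeq2 called 3 (Dhcr7, Mvk and Nsdhl; 4.73% of all genes) and limma voom called 0. The median log2 difference was 0.46 for the 30 genes and 0.69 for the enzymes, against 0.06 over all tested genes. Mvk, Dhcr7, Lss, Srebf2, Cyp51, Fdft1 and Sqle were higher in every resmetirom liver than in every MASH liver, and Insig2 and Ggps1 were lower in every one, against 11.6% and 12.3% of all tested genes. For Mvk the log2 difference was 1.29 ± 0.27 (95% interval 0.70 to 1.88, adjusted p = 0.0571), from a mean of 25.2 ± 3.04 to 61.8 ± 19.7 CPM (SD, n = 3). The next lowest p-values were those of Dhcr7, at 1.02 ± 0.25 (adjusted p = 0.0949), and Nsdhl, at 0.99 ± 0.27 (adjusted p = 0.123). Srebf2 differed by 0.59 ± 0.20 (adjusted p = 0.21). Hmgcs1 differed by 0.34 ± 0.40 (adjusted p = 0.714), and Insig2 by -0.94 ± 0.41 (adjusted p = 0.306). Without resmetirom liver 1 edgeR called 3 genes, Dhcr7, Mvk and Nsdhl. Without control liver 1 it called Dhcr7 and Mvk, and without control liver 1 and resmetirom liver 2 it called Lbr and Mvk, against 3.29% of all genes tested.

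The MASH livers themselves differed from control by less than the test could call. None of the 30 genes was called by edgeR (0.0143% of all tested genes were), 6 had an unadjusted p below 0.05, all of them higher, against 9.23% of all tested genes, DESeq2 called 1 (Mvd; 0.626% of all genes) and limma voom called 0. The median log2 difference of the 30 genes was 0.47, against -0.02 over all tested genes. Of the 30, 11 genes, among them Mvd, Fdft1, Insig2, Srebf2 and Mvk, were higher in every MASH liver than in every control liver, and Ggps1 and Soat2 were lower in every one, against 10.2% and 9.41% of all tested genes. Mvd had the lowest p-value, with a mean of 14.9 ± 1.73 CPM in control and 34.8 ± 5.93 in MASH livers (SD, n = 3; log2 1.22 ± 0.30, adjusted p = 0.392). Fdft1 followed at 0.82 ± 0.25 (adjusted p = 0.51), then Insig2 at 1.04 ± 0.41 (95% interval 0.15 to 1.93, adjusted p = 0.52). With control liver 1 and resmetirom liver 2 left out, the median of the 30 genes against control was 0.25 for MASH and 0.71 for resmetirom. The comparisons with control share the same 3 control livers, so their values are not independent.

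**Figure D4:**
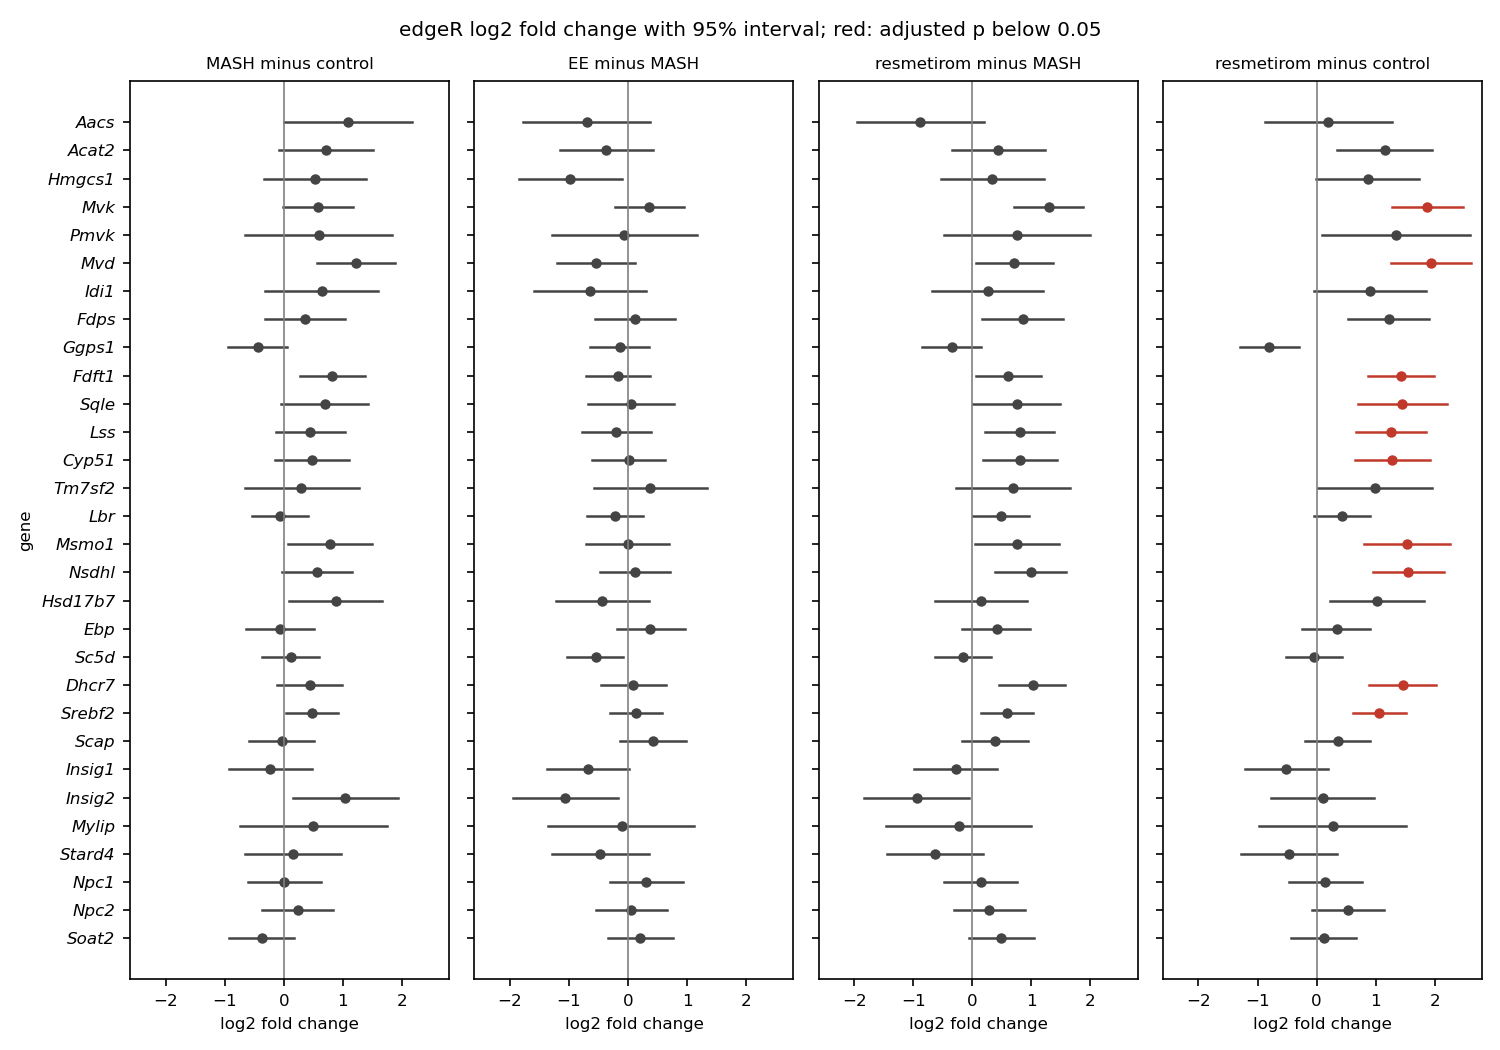
edgeR log2 differences (points) with 95% intervals (lines) for the 30 genes in 4 comparisons; red marks an adjusted p below 0.05, and the vertical line marks no difference. Red points appear only in resmetirom minus control, for 10 genes between 1.06 (Srebf2) and 1.93 (Mvd).

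The 30 genes had a median log2 difference of -0.09 between the EE and MASH livers, against -0.02 over all tested genes. In the fit of all 12 livers none was called by edgeR (0.00715% of all tested genes were), 3 had an unadjusted p below 0.05 against 7.49% of all tested genes, and DESeq2 called 0 (0.187% of all genes), as did limma voom. The 3 were Insig2, Sc5d and Hmgcs1, all lower under EE. Groups did not overlap for 5 genes that were higher and 6 that were lower, against 16.7% and 15.5% of all tested genes, so such separation was about as frequent as among all genes. Insig2 differed by -1.06 ± 0.41 (95% interval -1.94 to -0.17, adjusted p = 0.626), a 2.08-fold lower level. Of its EE livers, 2 and 3 lay below every MASH liver and liver 1 did not. Sc5d measured 534, 515 and 417 CPM in MASH and 352, 307 and 339.8 in EE livers, with no overlap (log2 -0.55 ± 0.22, adjusted p = 0.627). Hmgcs1 differed by -0.98 ± 0.40 (95% interval -1.85 to -0.10, adjusted p = 0.63), and every EE liver lay below every MASH liver. Mvd lay lower in every EE liver too (log2 -0.54 ± 0.30, adjusted p = 0.734), whereas Mvk lay higher in every one (log2 0.36 ± 0.27, adjusted p = 0.81). Sqle, Cyp51 and Srebf2 had intervals of -0.68 to 0.78, -0.61 to 0.63 and -0.30 to 0.58 around differences of 0.05 ± 0.34, 0.01 ± 0.29 and 0.14 ± 0.20.

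A fit of the EE and MASH livers alone called more genes, 3 of the 30, against 5.63% of the genes tested in that fit. Sc5d fell (-0.56 ± 0.12, edgeR adjusted p = 0.0357, range over 11 fits 0.00817 to 0.902). Tm7sf2 rose (0.37 ± 0.09, adjusted p = 0.0453, range 0.0123 to 0.98), and so did Ebp (0.38 ± 0.09, adjusted p = 0.048, range 0.00932 to 0.956). EE and MASH livers of the same number deviated together from their group means, though no label states a pairing. The numbers are the replicate numbers of the sample titles, and the library names of these livers carry other numbers. With the replicate number as a block the same fit called 14 of the 30, against 20.7% of the genes tested. These calls rest on a pairing that is not established. In that fit 9 genes fell, namely Hmgcs1, Mvd, Sc5d, Stard4, Insig1, Insig2, Hsd17b7, Acat2 and Idi1. Hmgcs1 fell by 0.97 ± 0.14 (adjusted p = 0.00688, range 0.00688 to 0.862), Insig1 by 0.65 ± 0.12 (adjusted p = 0.0116, range 0.0116 to 0.902) and Insig2 by 1.19 ± 0.17 (adjusted p = 0.0119, range 0.0119 to 0.862). The 5 that rose were Scap, Ebp, Tm7sf2, Mvk and Npc1. The block added to the fit of all 12 livers called none, with a lowest adjusted p of 0.426.

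The compounds were set side by side at their single doses, 100 mg/kg and 3 mg/kg, which differ. No gene of the 30 was called between EE and resmetirom by edgeR (0.307% of all tested genes were), 13 had an unadjusted p below 0.05, all of them lower in EE, against 11.8% of all tested genes, DESeq2 called 3 (Dhcr7, Lss and Mvd; 2.95% of all genes) and limma voom called 0. The median log2 difference, EE minus resmetirom, was -0.64 for the 30 genes and -0.78 for the enzymes, against -0.08 over all tested genes. Of the 30, 12 lay lower in every EE liver than in every resmetirom liver and none higher, against 9.09% and 8.7% of all tested genes. Mvd differed by -1.25 ± 0.30 (95% interval -1.91 to -0.60, adjusted p = 0.12), Lss by -1.0 ± 0.27 (adjusted p = 0.155) and Dhcr7 by -0.92 ± 0.25 (adjusted p = 0.163). Hmgcs1 differed by -1.32 ± 0.41 (95% interval -2.20 to -0.43, adjusted p = 0.214). Without resmetirom liver 1 edgeR called Mvd and Nsdhl, and without control liver 1 and resmetirom liver 2 it called Hmgcs1, Lbr and Lss, against 2.94% of all genes tested.

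Between EE and control none of the 30 was called by edgeR (0.1% of all tested genes were), 9 had an unadjusted p below 0.05 against 16.1% of all tested genes, DESeq2 called 1 (Mvk; 4.1% of all genes) and limma voom called 0. The median log2 difference was 0.39, against -0.06 over all tested genes, and it was 0.12 with control liver 1 and resmetirom liver 2 left out. Of the 30, 12 genes were higher in every EE liver than in every control liver and 3 were lower. The shares of all tested genes were 13.7% and 13.5%. Among the 12, Mvk differed by 0.94 ± 0.27 (95% interval 0.35 to 1.54, adjusted p = 0.153) and Srebf2 by 0.61 ± 0.20 (adjusted p = 0.188). Insig1 was lower in every EE liver than in every control liver (log2 -0.90 ± 0.32, 95% interval -1.60 to -0.20, adjusted p = 0.212).

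**Figure D5:**
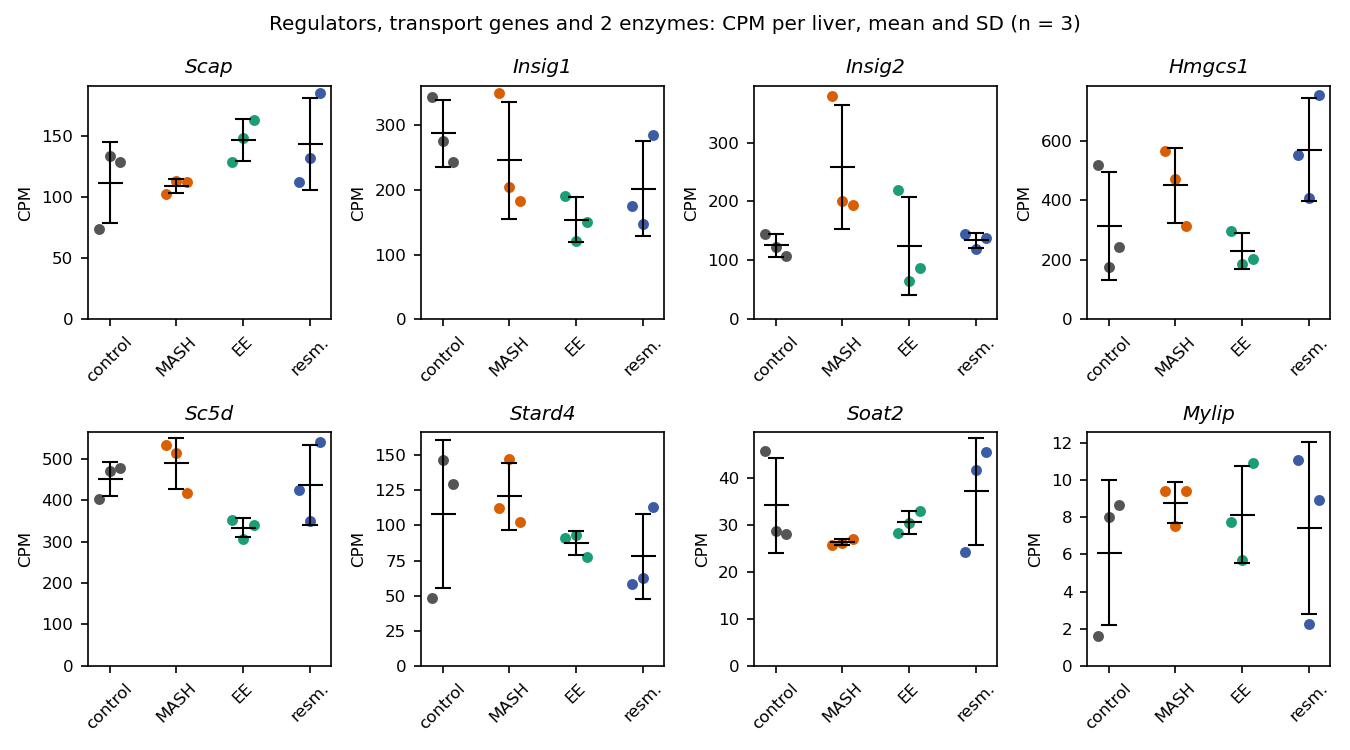
CPM in each liver (points), with the mean (long bar) and SD (short bars, n = 3) of each group, for 3 regulators of SREBP2, 2 enzymes and 3 genes of sterol uptake, transport and esterification; each y axis starts at 0. Insig2 reached 379 CPM in MASH liver 1 and 145.6 at most in the control and resmetirom livers, and Mylip was at 1.61 CPM in control liver 1 and 2.25 in resmetirom liver 2.

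Of the 5 genes of uptake, transport and esterification, none was called in any of the 6 comparisons by edgeR with all 12 livers, nor by DESeq2 or limma voom. In resmetirom against control 3.16% of all tested genes were called, so 0 of 5 is near the general share. Their median log2 difference there was 0.15, against 0.02 over all tested genes, and none of the 5 had an unadjusted p below 0.05, against 22.9% of all tested genes. Mylip encodes IDOL, the ligase that marks lipoprotein receptors for breakdown, and it measured 1.61, 7.99 and 8.68 CPM in the control livers, 9.41, 7.53 and 9.41 in the MASH livers, 7.75, 5.72 and 10.9 in the EE livers and 11.1, 2.25 and 8.92 in the resmetirom livers. Its resmetirom minus control difference was 0.27 ± 0.57 (95% interval -0.97 to 1.51, adjusted p = 0.821). Stard4, a soluble sterol carrier, measured 48.2, 146 and 129.5 CPM in the control livers, 112, 147 and 102 in the MASH livers, 91.4, 93 and 77.9 in the EE livers and 58.1, 62.9 and 113 in the resmetirom livers. The lowest values were in control liver 1 and resmetirom livers 1 and 2, and the difference was -0.47 ± 0.37 (adjusted p = 0.483). Soat2, the liver enzyme that esterifies cholesterol, measured 45.7, 28.7 and 28 CPM in the control livers, 25.8, 26.1 and 27 in the MASH livers, 28.2, 30.3 and 33 in the EE livers and 24.2, 41.7 and 45.4 in the resmetirom livers. The MASH livers lay within a range narrower than that of any other group and below every control liver (log2 -0.37 ± 0.25, adjusted p = 0.687). Npc1 and Npc2, which pass cholesterol out of lysosomes, differed by 0.15 ± 0.28 (adjusted p = 0.795) and 0.53 ± 0.28 (adjusted p = 0.276) between resmetirom and control.

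Per kilobase of the longest transcript, the scale on which genes can be compared, Fdps was the most abundant of the 30 in every group, at 210 CPM per kb in control, 269 in MASH, 292 in EE and 488 in resmetirom livers. Ggps1 was the least abundant, at 1.47, 1.08, 0.977 and 0.842 CPM per kb. Hmgcs1 was at 90.0, 130.0, 66.0 and 164, Mvk at 10.1, 15.2, 19.5 and 37.2, and Mvd at 8.48, 19.8, 13.6 and 32.4. Srebf2 itself was at 8.46, 11.7, 12.9 and 17.6 CPM per kb, and Insig1 at 107, 91.1, 57 and 74.9. The order of Fdps above Hmgcs1 above Mvk held in each group.

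Genes next to the pathway were read from 5 lists. Of 15 further genes of SREBP processing and sterol sensing, none was called in any comparison by edgeR with all 12 livers. The same held for 10 genes of LXR, its targets and sterol efflux. In resmetirom against control, 1 of these 15 and 1 of these 10 had an unadjusted p below 0.05, against 22.9% of all tested genes. Of 14 genes of the non-sterol isoprenoid branch, 1 was called in that comparison, where 3.16% of all tested genes were. Nus1, a subunit of the enzyme that makes dolichol, fell from 42.7, 42.6 and 42.3 CPM in control to 29.1, 22.4 and 22.4 in resmetirom livers (log2 -0.79 ± 0.18, adjusted p = 0.0427). Of 17 tested genes of sterol esters, oxysterols and sterol carriers, 1 was called, so both lists lie near the general share. Scarb1, the receptor for high-density lipoprotein, rose from 90.2, 132 and 138 to 201, 265 and 244 CPM (log2 0.98 ± 0.21, adjusted p = 0.0324). All 3 resmetirom livers lay outside the control range for both genes, and so did every MASH and every EE liver. Nus1 measured 38.5, 37.4 and 27.9 CPM in the MASH livers and 29.4, 26.4 and 24.4 in the EE livers. Scarb1 measured 171, 145 and 168 CPM in the MASH livers and 196, 203 and 196 in the EE livers.

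Fatty acid synthesis is the branch driven mainly by the related factor SREBP1. Of its 14 listed genes, 7 had a positive and 7 a negative difference in resmetirom against control, with a median of -0.05. Elovl6, which lengthens palmitate, was the 1 gene called there, against 3.16% of all tested genes. It measured 87.3, 139 and 90.0 CPM in the control livers, 76, 96.2 and 94.6 in the MASH livers, 44.6, 39.7 and 37.1 in the EE livers and 50.7, 47.7 and 56.7 in the resmetirom livers. Every EE and every resmetirom liver lay below every control and every MASH liver. From control it fell under resmetirom (log2 -1.03 ± 0.21, adjusted p = 0.0296) and under EE (log2 -1.38 ± 0.22, adjusted p = 0.0387). From MASH to EE all 14 genes had negative differences, with a median of -0.77, but none was called by edgeR (0.00715% of all tested genes were), 4 had an unadjusted p below 0.05 against 7.49% of all tested genes, and Elovl6 stood at -1.14 ± 0.21 (adjusted p = 0.582). Srebf1, which encodes SREBP1, had means of 221 ± 66.1, 322 ± 91.8, 221 ± 28.9 and 139.9 ± 89.6 CPM in control, MASH, EE and resmetirom livers (SD, n = 3), and its difference from MASH to resmetirom was -1.20 ± 0.40 (adjusted p = 0.199). The calls of Nus1, Scarb1 and Elovl6 were each lost in 13 or 14 of 22 alternatives, among them the fit of the compared groups alone.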

How the data were processed

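Poly(A) RNA of 12 mouse livers was read as stranded mRNA libraries, per the labels' protocols. Trimming with fastp and the genome build GRCm39 are named in the submitters' processing notes; what aligned the reads, and whether counting used strand, was not given in the sources used here. Deposited by the authors was 1 table of expected counts per Ensembl gene, unscaled, of which 91.5% to 93.3% per library are whole. They were rounded. Symbols matched 22603 of 28036 identifiers.

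All 12 libraries were fitted together with edgeR 4.0.16 in R 4.3.3 (filterByExpr, trimmed mean of M values scaling, robust quasi-likelihood F test, 8 residual degrees of freedom, biological coefficient of variation 0.334), with Benjamini-Hochberg adjustment over 13988 genes and a threshold of 0.05. The SE is the size of the log2 difference divided by the square root of F. A CPM uses the scaled library size and stands for 9.95 to 26 counts, which covers counting error only. The script was tested on simulated data. Of 100 genes simulated with a 2-fold change between EE and MASH, the main fit called 11%, and it called 2 unchanged genes. DESeq2 called 33% of the 100 and 38 unchanged genes. Where no tool stands beside an adjusted p, it is from edgeR.

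The genes named with every library value were Srebf2, Scap, Insig1, Insig2, Hmgcs1, Fdps, Sqle, Cyp51, Mylip, Stard4, Soat2, the genes called and the 3 with the lowest p in each comparison; from the neighbouring lists, the genes called. Others (Nsdhl, Ebp, Pmvk and Ggps1 among them) were chosen after their values were seen. The members and all lists were chosen with earlier results of these data known. Replicate numbers recur in each group. EE and MASH livers of the same number had correlated deviations from their group means (0.334, 0.251 and 0.248). The best other number gave -0.164, -0.101 and -0.054. In no other pair of groups did all same-number correlations exceed 0.1. Between resmetirom and control the same numbers gave -0.312, -0.409 and 0.329, and another number gave up to 0.528. Correlations of this size thus also arose between livers of different numbers. No label states a pairing, and these values do not establish one. Alternatives were DESeq2 1.42.0, limma 3.58.1 (voom), other scaling, no filter, mitochondrial genes removed, the compared groups alone, the replicate block, and libraries left out. Promoter windows came from RefSeq on GRCm38.p6, exon overlaps and transcript lengths from an annotation of the same build, and neither was placed on GRCm39.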

Additional observations from a re-analysis of the deposited data

How the results depend on the processing

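Among 37 results for single genes, 814 alternatives were run, of which 665 kept the direction and the side of the threshold, 125 lost a call, 24 gained one and none reversed. The 10 calls of resmetirom against control became 0 with no scaling factors, 0 in the fit of the compared groups alone and 0 in that fit with the replicate block, and were 13 by DESeq2; leaving out 1 library gave 3 to 11. The fit of 2 groups has fewer samples behind its spread, whereas the main fit shares 1 spread over all 4 groups. Levels of livers within a group correlated at 0.911 to 0.992 in control and 0.922 to 0.96 in resmetirom livers. In MASH and in EE livers they correlated at 0.987 to 0.989. The cause of the losses was not tested. With the replicate block and all 12 livers 9 remained, Sqle missing at an adjusted p of 0.0501. For MASH against control, calls numbered 0, and 1 with no filter and 1 by DESeq2. For EE against MASH they numbered 0, 3 in the compared groups alone and 14 there with the replicate block. For resmetirom against MASH they numbered 0, 1 with no filter, 3 by DESeq2, 2 without control liver 1 and resmetirom liver 2, and 0 to 3 when 1 library was left out. For EE against resmetirom they numbered 0, 2 with no filter, 3 by DESeq2, 3 without those 2 livers, and 0 to 2 when 1 library was left out. For EE against control they numbered 0, and 1 by DESeq2. With no scaling factors the median of all tested genes moved to -0.32 for EE against MASH and that of the 30 genes to -0.39, and for resmetirom against control to 0.22, the 30 genes standing 0.79 above it; for MASH against control all genes moved to 0.37. The block changed no other call count. Mylip and Ggps1 reached the lowest levels of the 30 genes in a single library, 1.61 and 3.07 CPM, and 1 CPM stands for as few as 9.95 counts. Their SEs for resmetirom against control were 0.57 and 0.23. The part of depth in these was not tested.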

Other observations

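The sterol genes did not shift evenly within control liver 1, the library with 35.4% mitochondrial counts. Hmgcs1, Insig1, Soat2 and Ggps1 were higher there than in both other control livers, at 517, 344, 45.7 and 7.54 CPM. Pmvk, Aacs and Mylip were far lower, at 4.82, 13.8 and 1.61 CPM against at least 39, 66.3 and 7.99 in the other control livers. Mylip was also low in resmetirom liver 2, the library with 35.7% Mup counts, at 2.25 CPM, while the other 10 libraries lay between 5.72 and 11.1 CPM. These genes were picked after their values were seen.

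Within the resmetirom group, the summed level of the 21 enzymes was 3309, 4686 and 5745 CPM in livers 1, 2 and 3, against 1974 to 2735 CPM in control, 2772 to 3498 in MASH and 2711 to 2839 in EE livers. Resmetirom liver 1, the lowest of its group, had the highest sums of Kupffer cell markers (1121 CPM), stellate cell markers (658.2 CPM) and cycling cell markers (62.48 CPM, against 10.56 and 8.05 in resmetirom livers 2 and 3 and 4.02 to 13.12 in the control, MASH and EE livers). The part of these markers in the spread of the enzymes was not tested. Of the 4 groups, the EE livers lay closest together for Sqle (SD 1.86 CPM) and Cyp51 (SD 2.63 CPM).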
